A study of Cucumis sativus with 11 samples.

Results

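In cucumber leaves, 123 of 20165 listed genes were far higher in plants given silicon alone than in every other library of the study. In leaves given silicon together with salt, their median level per library was no higher than 1.49 RPKM. They were chosen by a rule on RPKM + 1: the lower of the 2 silicon libraries had to be at least 4 times the highest of the other 9 libraries. The rule reads all 11 libraries, so the height of silicon over the other groups is how the genes were picked. It is described below without a test.

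The plants were seedlings of the cultivar JinYou 1 in nutrient solution, and every group was sampled after 3 days of treatment. Control plants (3 libraries) had no addition, salt plants (3) had 75 mM NaCl, silicon plants (2) had 0.3 mM silicon as sodium silicate, and salt plus silicon plants (3) had both. Each library was made from 3 leaves combined, the youngest that had fully expanded. Values are RPKM, which divides reads by the length of the gene and the size of the library. Silicon was added as a sodium salt, and no group received the sodium of that salt without silicon.

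Silicon enters cucumber roots as uncharged silicic acid through channel proteins of the aquaporin family, moves to the shoot with the transpiration stream and is deposited as silica in leaf tissue. Silicon feeding is best known for easing stress, salt stress included, where lower shoot sodium and less oxidative damage are often reported. Its action on leaf transcripts in unstressed plants is the part of the design these genes come from.

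The deposited files give gene IDs without names. None could be paired with RefSeq (0 matches against 23999 reference genes), so genes are called by ID, no function is given, and the leaf label was not checked against marker genes. In this ID scheme the digit after Csa is the chromosome and the number after G gives the order along it. Summed RPKM lay between 974471 and 1117430 per library, and between 1711 and 2397 genes were listed at 0. Depth could be estimated only relative to control 1, between 0.885 and 1.15, with steps that were not whole reads.

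In silicon 1 the 123 genes had a median of 69.8 RPKM and ran from 4.24 to 8613. In silicon 2 the median was 58.6 RPKM and the range 4.22 to 6331. The control libraries had medians of 7.03, 2.88 and 0.878 RPKM in controls 1, 2 and 3. Salt libraries 1 to 3 had medians of 1.52, 0.490 and 1.06 RPKM, and salt plus silicon libraries 1.49, 1.38 and 1.02 RPKM. So control 1 stood highest outside the silicon group, and salt plus silicon lay at the level of salt alone. Over all tested genes the library medians ran from 9.14 to 13.4 RPKM. In whole leaves a lower value can mean fewer cells of a type or less RNA per cell, which cannot be told apart.

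**Figure D1:**
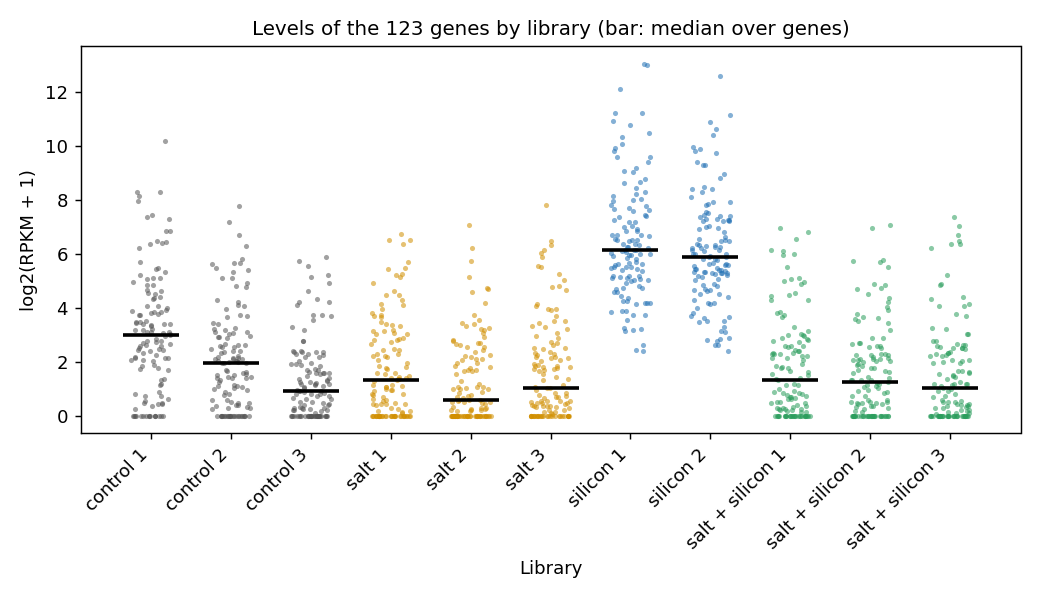
Level of each of the 123 genes in each of the 11 libraries, as log2(RPKM + 1) on the vertical axis, 1 point per gene and a bar at the median over genes. The silicon medians stand at 6.15 and 5.90, control 1 at 3.01, control 2 at 1.96, and the rest from 0.58 to 1.33.

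The genes were not all rare transcripts. With silicon alone, 8 of them had a mean of 1000 RPKM or more, 37 lay from 100 to 1000, 71 from 10 to 100 and 7 below 10. Together they held 4.51% of the summed RPKM in silicon 1 and 2.70% in silicon 2, against 0.399%, 0.125% and 0.0509% in controls 1 to 3. In salt libraries their share ran from 0.0585% to 0.114%, and in salt plus silicon libraries from 0.0883% to 0.114%. The 5 genes with the highest silicon mean made up 52.2% of that sum in silicon 1 and 47.0% in silicon 2.

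Csa5G285030 had the highest silicon level of the set, at 8613 and 6331 RPKM. Its controls were at 1164, 220 and 45.9 RPKM, its salt libraries at 43.0, 8.01 and 79.6, and its salt plus silicon libraries at 63.9, 125 and 167. All salt plus silicon values thus fell within the range of the controls. The silicon mean of 7472 ± 1614 RPKM (SD, n = 2) was 15.7 times the control mean of 477 ± 602 (n = 3) and 63.0 times the salt plus silicon mean of 119 ± 51.8 (n = 3).

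Csa4G000860 stood at 8323 and 1903 RPKM with silicon. It was at 315, 105 and 12.5 RPKM in control, 11.8, 26.0 and 44.4 in salt and 93.4, 50.7 and 103 in salt plus silicon libraries. Silicon 1 was 4.37 times silicon 2 here, and control 1 was 25.2 times control 3.

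Csa4G285740 was at 4514 and 2303 RPKM with silicon, at 312, 43.5 and 10.7 in control, at 107, 52.0 and 224 in salt and at 112, 53.9 and 130 in salt plus silicon libraries. Csa4G285780, 4 IDs further along the list, was at 2441 and 1363 RPKM with silicon and 251, 49.4 and 17.7 in control. It reached no more than 31.9 RPKM in any salt library and 30.5 in any salt plus silicon library. Both genes had control 1 far above control 3, but all salt libraries were above control 2 in the former and below it in the latter.

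Across the set, the silicon mean was a median of 17.9 times the control mean (109 genes with a control value above 0, range 6.96 to 827), 36.9 times the salt mean (100 genes) and 47.2 times the salt plus silicon mean (101 genes). The rule sets a floor for these sizes. The fold over control depends on the control library taken: the lower silicon library was a median of 6.73 times control 1 (107 genes), and the silicon mean a median of 46.5 times control 3 (91 genes). Silicon 1 was above silicon 2 in 86 of the 123 genes, by a median of 0.30 on the log2 scale, against 46.1% of all tested genes and a median of -0.02. The libraries were within 2-fold of each other in 90 genes. At the extremes Csa7G312940 was at 286 and 39.0 RPKM in silicon 1 and 2, and Csa6G350360 at 12.3 and 58.4 RPKM. These last 2 genes were named after their values were seen.

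**Figure D2:**
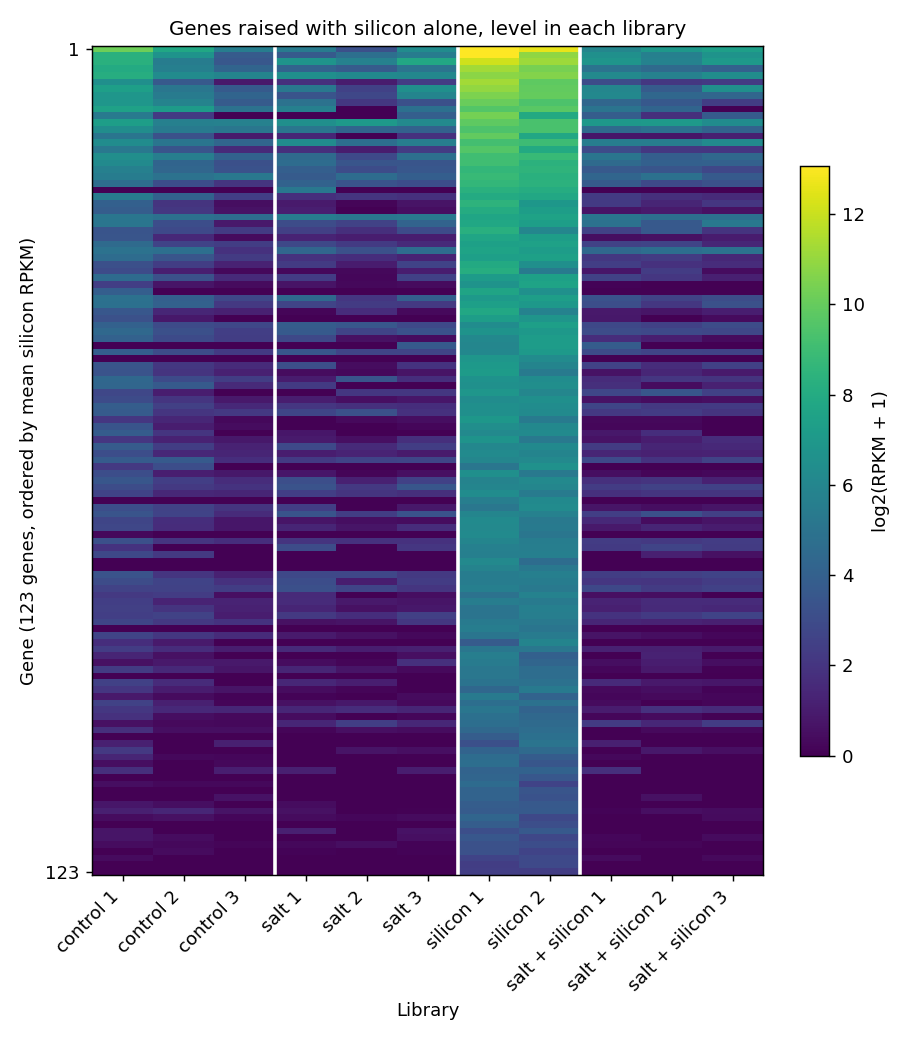
Each row is 1 of the 123 genes, ordered by mean silicon RPKM, each column 1 of the 11 libraries, and colour gives log2(RPKM + 1). The 2 silicon columns are bright throughout, control 1 is the brightest of the other 9, and dark rows across those 9 are genes listed at 0 there.

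The ratio of the lower silicon library to the highest other library had a median of 5.62 and reached 78.5. The largest ratios came in large part from genes with no value outside silicon: of the 24 genes at 8 or more, 10 were listed at 0 in all 9 other libraries. Csa4G011720 led with 115 and 77.5 RPKM, followed by Csa6G337520 at 47.3 and 74.0, Csa6G133720 at 56.0 and 36.8, and Csa1G065940 at 44.9 and 32.6. Csa2G075310, at 35.4 and 24.9 RPKM, and Csa4G626600, at 69.7 and 23.9, were likewise listed at 0 in all 9. For these 6 genes the ratio depends on the 1 RPKM that the rule adds, and no fold is given. Csa6G216420 was at 74.7 and 34.4 RPKM with silicon and listed at 0 in 8 libraries, with 0.198 RPKM in control 1.

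Csa6G363020, the last of the 8 largest ratios, had values in most libraries. It stood at 104 and 188 RPKM with silicon, at 4.36, 0.694 and 0.306 in control and at 0.602, 0.234 and 0.284 in salt. With both treatments it was at 0.107 RPKM in the first library and listed at 0 in the others. Its control 1 was above every other library without silicon alone.

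In all, 12 of the 123 genes were listed at 0 in the 9 other libraries, 43 were at 0 in some of them and 68 had a value above 0 in every library. An exact 0 can be a failed estimate in files of this kind. Listing in a single group was more frequent for silicon than elsewhere: 40 genes had a value in both silicon libraries and 0 in the rest, 12 of them at 3 RPKM or more. The same count was 1 for control, 1 for salt and 4 for salt plus silicon, each with 3 libraries. With 1 library of a group set aside, so that 2 stood for it, the count for control lay from 6 to 13, for salt from 7 to 10, and for salt plus silicon from 11 to 14. The library set aside was not read, so 1 fewer library had to be at 0 than for silicon.

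The other groups gave few such genes. Applied to the other groups with all 3 of their libraries, the rule gave 0 genes for control, 1 for salt and 2 for salt plus silicon. With 2 of the 3 libraries, as in the silicon group, it gave 0 to 4, 2 to 4 and 3 to 8 genes. The library set aside was not read at all, so 1 fewer other library was compared than for silicon. In the opposite direction, 2 genes had the lowest other library at least 4 times both silicon libraries. These counts describe the libraries and carry no test.

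The threshold cut through a continuous range. Just inside it, Csa1G039880 had a ratio of 4.04 (637 RPKM in the lower silicon library, 157 in control 1), Csa3G142910 4.03 (17.0 and 3.47) and Csa6G495810 4.01 (7.82, with 1.20 in salt 1). Just outside, Csa1G569310 had 3.97 (449 RPKM, with 112 in control 1) and Csa4G000820 had 3.92 (579 and 147). Csa7G037610 had a ratio of 3.92 as well, with 3488 RPKM in the lower silicon library and 888 in salt 3. A ratio of 3 or more was reached by 216 genes and of 2 or more by 482.

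The controls were not alike in these genes, and control 1 stood between the other controls and silicon in most of them. What sets it apart was not tested, and every control mean and fold over control given here includes it. Among the 111 genes with a value above 0 outside silicon, 87 (78.4%) had control 1 above control 2 and control 2 above control 3. The next most frequent order, 1 above 3 above 2, held 8 genes, and 10 genes had ties. Of the 17285 other tested genes, 24.8% had control 1 above 2 above 3. The rule caps the highest of the 9 libraries but does not set the order of the controls, so this order is not built in. With 3 control libraries it carries no test.

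On the log2(RPKM + 1) scale, control 1 was above control 3 by a median of 1.89 in the 111 genes (quartiles 1.14 and 2.63), and by 0.13 in the other tested genes. The step from control 1 to control 2 had a median of 1.08 and that from control 2 to control 3 of 0.74, against 0.25 and -0.09 in the other genes. In the 91 genes with a value in control 3, control 1 was a median of 5.47 times as high. Control 1 was the highest of the 9 libraries in 87 of the 111 genes, against 16.8% of the other tested genes. Salt 1 held that place in 7 genes and control 2 in 5, while in the other tested genes salt 2 held it most often (21.8%).

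Csa2G010390 had the largest difference between controls 1 and 3, with 89.3, 11.6 and 0.871 RPKM in controls 1 to 3 beside 2441 and 909 with silicon. Its salt libraries were between 1.01 and 3.93 RPKM and its salt plus silicon libraries between 3.34 and 7.08. Control 1 was 102 times control 3, and control 3 lay below the salt libraries. Csa4G000850 followed, at 39.0 and 3.63 RPKM in controls 1 and 2 and listed at 0 in control 3, and Csa4G285740 was next.

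Few genes went the other way. Csa4G433470 was listed at 0 in controls 1 and 2 and at 0.545 RPKM in control 3, beside 16.9 and 8.83 with silicon. Csa5G139760 was at 0.520, 0.861 and 0.862 RPKM in control and at 42.6 and 18.5 with silicon. Both had control values below 1 RPKM. Csa1G065940, listed at 0 in all controls, ties with the other genes at 0 there.

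The same order grew more frequent with the silicon ratio across all tested genes with a value outside silicon. Control 1 was above 2 above 3 in 17.1% of the 5384 genes with a ratio below 0.5 and in 26.9% of the 3634 from 0.75 to 1. It was 41.5% of the 1458 genes from 1 to 1.5, 71.7% of the 265 from 2 to 3 and 79.1% of the 91 from 3 to 4. In the 111 genes of the set with a value outside silicon it was 78.4%. These thus continued a range and were not set off from genes just below the threshold. The 12 genes of the set at 0 in all 9 other libraries are not in this count.

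**Figure D3:**
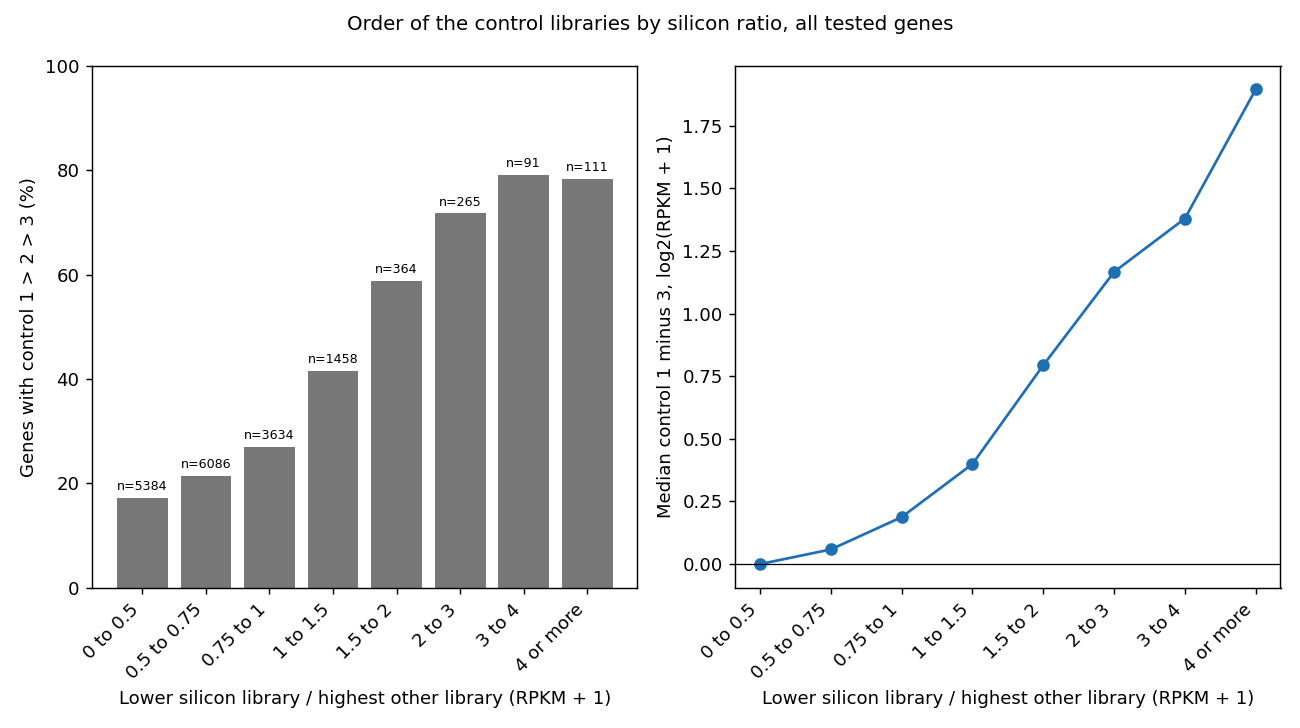
Tested genes with a value above 0 outside silicon, binned by the ratio of the lower silicon library to the highest other library (horizontal axis, on RPKM + 1). Bars on the left give the percentage with control 1 above 2 above 3, and points on the right the median of control 1 minus control 3 in log2(RPKM + 1), which climbs from 0.00 to 1.89. Bins lower than 1 hold most genes.

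The rule ties silicon to control 1, since the lower silicon library had to be at least 4 times it, so a link between the height of silicon and that of control 1 is built in to some degree. Over the 68 genes with a value in every library, control 1 minus control 3 correlated with silicon mean minus control 2 at Pearson's r = 0.63 and Spearman's rho = 0.54, a description across genes that all come from the same 5 libraries and were chosen for high silicon. In the other tested genes r was 0.32 and rho 0.33. How much of the value in the set comes from the rule was not tested.

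**Figure D4:**
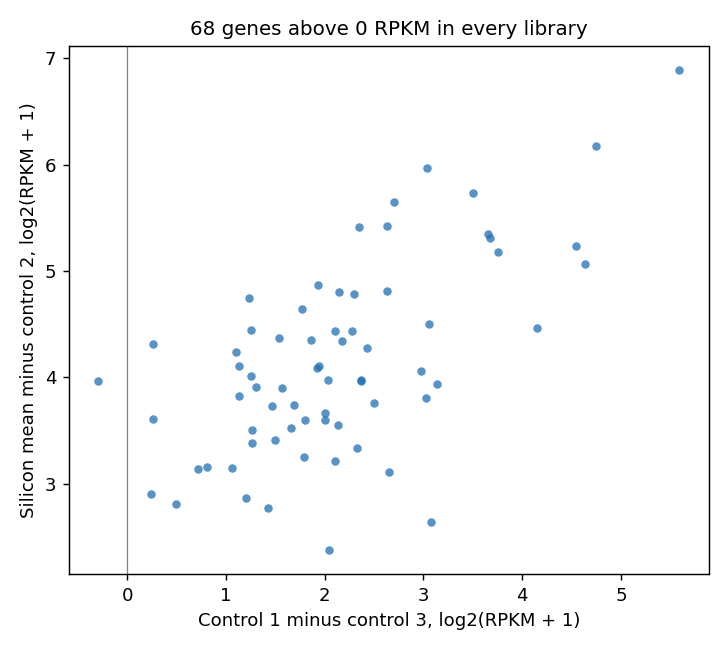
Each point is 1 of the 68 genes with a value above 0 in all 11 libraries. The horizontal axis is control 1 minus control 3 and the vertical axis silicon mean minus control 2, both in log2(RPKM + 1). All but 1 point lie to the right of 0, and higher points lie further right.

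The remaining groups were compared with each other. The rule reads the highest of their 9 libraries, and since that was control 1 in 87 of the 111 genes, its cap falls on a value that enters both comparisons with control. The counts below are therefore descriptions of the set and not independent of how it was chosen. limma was run on log2(RPKM + 1) of the 17408 genes that reached 1 RPKM in 2 libraries or more, with Benjamini-Hochberg adjustment over all of them and a threshold of 0.05. All 123 genes passed that filter, as the rule ensures, but 34 of them passed only through the silicon libraries, with fewer than 2 of the other 9 at 1 RPKM. Among these 34 are the 12 genes at 0 in all 9, which could not be called. Filtered and fitted on the 9 libraries without silicon, 89 genes of the set and 17053 in all were tested. The labels call the replicates biological but do not say whether plants shared a container, so p-values measure the spread between these libraries.

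With salt alone, 2 of the 123 genes fell against control and 1 rose, where 3% of all tested genes were called lower and 6.11% higher (9.12% in either direction). There were 0 calls without control 2 and 14 without control 3, with 2 of the 3 genes among the 14. Without salt 3 there was 1 call, a gene not among the 3. Without salt plus silicon 1 or either silicon library, 1 of the 3 was left. An unadjusted p under 0.05 was found in 24 genes of the set (19.5%) and in 28.8% of all tested genes. The median log2 change of the set was -0.52, and 0.11 in all tested genes, with 90 of the 123 (73.2%) below 0 against 41.7% of all. In 14 genes every salt library was below every control, 11.4% of the set beside 9.06% of all tested genes, and in 2 every salt library was above every control, beside 20% of all. Without control 1 the median of the set was -0.08 and that of all tested genes 0.19. Without the silicon group, 1 of the 89 genes tested was called, beside 1328 of all 17053, and the median of the 89 was -0.72.

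Csa6G490950 was at 5.33, 3.33 and 2.03 RPKM in control and 0.923, 0.490 and 0.236 in salt, with 32.6 and 43.1 with silicon. The salt values lay wholly below the controls, and the fitted log2 fold change was -1.52 ± 0.30 (SE), with a limma adjusted p = 0.0184. The salt plus silicon libraries were at 0.636, 0.421 and 0.157 RPKM, also below every control (log2 fold change -1.65 ± 0.30, limma adjusted p = 0.0175). Fitting the compared groups alone ended both calls, with a limma adjusted p of 0.0876 for salt and 0.0543 for salt plus silicon. Without control 2 the limma adjusted p was 0.0623 for salt and 0.0612 for salt plus silicon. For salt it was 0.0613 with salt 3 left out. For salt plus silicon it was 0.0507 with the second library of that group left out and 0.0766 with the third left out.

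Csa4G280600 was at 24.0, 9.84 and 3.84 RPKM in control and 2.62, 2.22 and 1.5 in salt, which gave a change of -1.83 ± 0.50 (SE, log2 scale, limma adjusted p = 0.0497). Every salt library was below control 3, the lowest control. With silicon the gene stood at 168 and 171 RPKM. The call was lost in 13 of 20 other settings. Among these were leaving out any 1 library other than control 3, with limma adjusted p from 0.0598 to 0.132, and the change was -1.24 without control 1. With both treatments the gene was at 3.39, 3.76 and 1.70 RPKM and did not pass the test (limma adjusted p = 0.0971).

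Csa4G046680 went up with each treatment. It was at 0.479, 0.238 and 0.234 RPKM in control, 1.61, 4.45 and 1.71 in salt, 3.84, 1.71 and 4.04 in salt plus silicon and 25.8 and 21.7 in silicon libraries. No salt or salt plus silicon library overlapped the controls. The log2 fold change was 1.37 ± 0.34 for salt (SE, limma adjusted p = 0.0361) and 1.62 ± 0.34 for salt plus silicon (limma adjusted p = 0.0256), the latter being the 1 gene of the set called higher there. The salt call was lost in 11 of 20 other settings and the salt plus silicon call in 5. Single libraries whose absence ended the salt call were controls 2 and 3, each salt library, each silicon library and salt plus silicon 1, with limma adjusted p from 0.0530 to 0.108. For the salt plus silicon call they were controls 2 and 3 and libraries 1 and 3 of that group, with limma adjusted p from 0.0622 to 0.109.

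With salt plus silicon against control, 1 of the 123 genes fell and 1 rose, those just given, beside 1.53% of all tested genes called lower and 4.8% higher (6.33% in either direction). There were 0 calls without control 2 or salt plus silicon 3, and 7 without control 3, with 1 of the 2 genes among the 7. Without salt plus silicon 1 or 2, 1 of the 2 was left. An unadjusted p under 0.05 was found in 23 genes (18.7%) and in 25.6% of all tested genes. The set had a median log2 change of -0.38, against 0.14 in all tested genes, and of -0.01 without control 1. In 20 genes every salt plus silicon library was below every control, 16.3% of the set beside 9.86% of all tested genes, and in 2 every one was above, beside 22.1% of all. Without the silicon group, 2 of 89 genes were called, beside 761 of all 17053, with a median of -0.60 in the 89. The comparison shares its control libraries with that of salt against control.

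Between salt plus silicon and salt, 0 of the 123 genes passed the limma test. For the 12 genes at 0 in all 9 libraries outside silicon, no other outcome was possible. The same held for Csa6G216420, Csa6G216410, Csa3G598370, Csa5G632120, Csa4G000840 and Csa6G350360, at 0 in every salt and salt plus silicon library. Without the silicon group, 0 of 89 genes passed. Of all tested genes 0.0172% passed, 0.0115% higher and 0.00574% lower. At an unadjusted p under 0.05 there was 1, beside 2.81% of all tested genes: Csa2G381690, named after its values were seen, at 44.3, 34.2 and 37.6 RPKM in salt and 33.6, 25.3 and 27.7 in salt plus silicon libraries (log2 change -0.41, limma adjusted p = 1). No library overlapped between the groups in 3 lower genes of the set (2.48% of all tested genes) and 5 higher ones (3.87% of all). Over the 111 genes with a value outside silicon the change had a median of 0.02 on the log2 scale, and over all tested genes of 0.03. As fitted, the comparison was imprecise for these genes. The 95% interval of the difference lay within 2-fold in either direction for 24 of these 111 genes, against 68.9% of all tested genes. Genes at 0 in every library compared but not in every control are still among the 111, with a difference fixed at 0. Of these, Csa6G216420, Csa6G216410 and Csa5G632120 count among the 24. The intervals of the 111 genes reached a median of 1.17 log2 units to each side, and 0.59 in all tested genes. Their width comes from the spread pooled over all 4 groups, silicon and control included, and not from the compared groups alone.

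Neighbouring genes were often in the set together. The 123 genes had 246 neighbouring places in the list, where an ID between 2 genes of the set counts for both. Of these places 18 (7.32%) held a gene of the set, while 0.610% of all listed IDs belonged to it. At 2 places it was 4.88%, at 3 places 0.813% and at 5 places 0. There were 3 runs of 3 and 3 runs of 2, holding 15 genes in all, and 20 genes had another within 3 places. IDs with the prefix for chromosome 6 made up 28.5% of the set and 16.6% of all listed IDs, and chromosome 4 held 19.5% and 11.9%. Chromosome 3 held less than its share, with 13.8% and 20.8%, as did chromosome 7 with 4.07% and 10.1%. Genes of the runs are counted in these shares. Neighbours may be copies of each other that share reads, and libraries that do not keep strand mix reads of overlapping genes. How far this enters the runs was not tested.

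The run Csa4G000840, Csa4G000850 and Csa4G000860 lay within 8 neighbouring IDs, Csa4G000820 to Csa4G000890, in each of which both silicon libraries were above all others. Over all listed IDs that held for 12.2%. The last of the 8, Csa4G000890, was at only 0.172 and 0.286 RPKM with silicon and listed at 0 elsewhere. Csa4G000880 before it had a ratio of 1.25. Csa4G000840 was at 34.6 and 97.3 RPKM with silicon, 3.47 and 7.5 in controls 1 and 2 and listed at 0 in the other 7 libraries. Csa4G000850 was at 1300 and 244 RPKM with silicon, at 14.5 in salt 3 while listed at 0 in the other salt libraries, and at 13.4, 2.41 and 12.7 with both treatments. The 3 genes did not share the order of the silicon libraries, as silicon 2 was the higher in Csa4G000840 alone. Next to them, Csa4G000830 was at 72.3 and 45.6 RPKM with silicon and 15.2 in control 1, and Csa4G000870 at 268 and 203 RPKM and 52.4 in control 1, both short of the threshold.

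The run Csa4G285740, Csa4G285750 and Csa4G285760, with Csa4G285780 close by, lay within 7 neighbouring IDs of that kind, Csa4G285730 to Csa4G285790. Csa4G285750 was at 248 and 89.6 RPKM with silicon, 8.16, 4.14 and 1.40 in control, 3.88, 1.01 and 5.15 in salt and 4.35, 2.65 and 2.17 in salt plus silicon libraries. Csa4G285760 was at 1948 and 965 RPKM with silicon, 165, 33.6 and 11.9 in control, 37.0, 4.84 and 89.3 in salt and 61.9, 12.6 and 88.9 in salt plus silicon libraries. All 3 genes of the run had silicon 1 above silicon 2, control 1 above 2 above 3 and salt 3 above salt 1 above salt 2. Csa4G285730, beside them, shared these orders at 6169 and 2639 RPKM with silicon but had 808 RPKM in salt 3, which put it outside the set.

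The third run of 3 had silicon levels from 32.6 to 63.8 RPKM, and its last gene had the largest ratio of the 3 runs. Csa1G065920 was at 61.1 and 53.4 RPKM with silicon, 9.50, 5.12 and 2.03 in control, 9.60, 4.14 and 8.77 in salt and 4.43, 8.14 and 4.61 in salt plus silicon libraries. Csa1G065930 was at 59.9 and 63.8 RPKM with silicon, 7.26, 3.44 and 2.76 in control, 9.12, 3.51 and 10.3 in salt and 3.98, 4.98 and 4.75 in salt plus silicon libraries. These 2 genes had nearly the same level in every group, and in both the highest salt library was above control 1. Csa1G065940, the last of the run, is among the genes listed at 0 in all 9 other libraries.

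**Figure D5:**
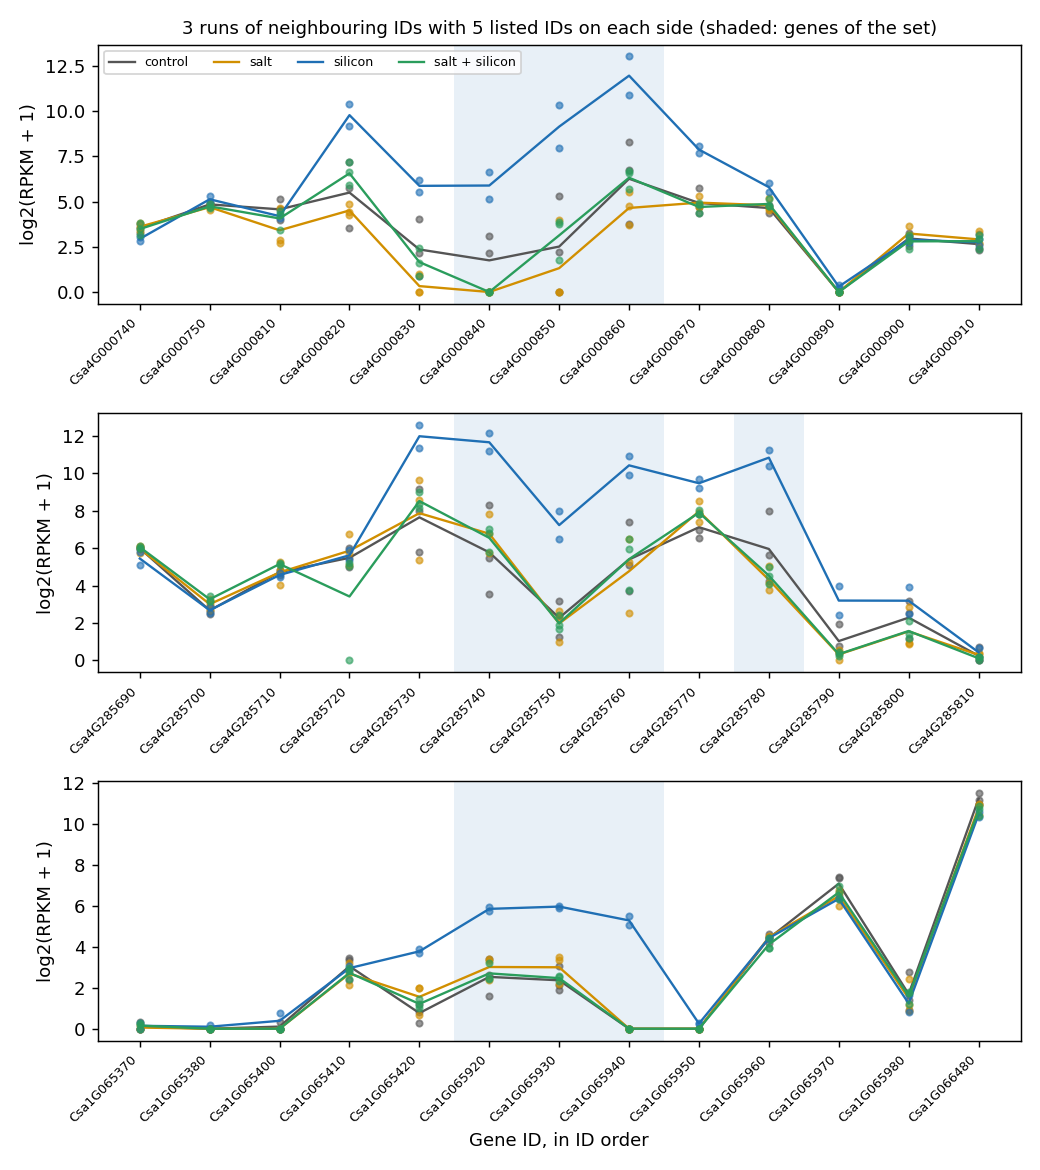
The 3 runs of 3 neighbouring IDs with 5 listed IDs to each side. Points are libraries, lines join group means over genes, shading marks genes of the set, and the vertical axis is log2(RPKM + 1). The silicon line rises above the others over the shaded genes and some of their neighbours and returns to them within the IDs shown.

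Genes next to the set but outside it had higher ratios than other genes. Of the 181 tested genes next to a gene of the set and not in it, 11.6% had a ratio of 2 or more, against 2.08% of all 17285 tested genes outside the set. At 5 places it was 2.76%.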

How the data were processed

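Poly(A) RNA of leaves was sequenced from libraries that do not keep strand, per the labels' protocols. TopHat2 was among the tools, per the submitters' processing notes. Which version was run, how reads were counted and on which build and gene models is not given in the sources used here. From this the authors deposited 1 RPKM value per gene and library. No counts were used, so depth is unknown beyond ratios between libraries and no interval for counting error is given. The rule was applied to RPKM + 1. The 17408 genes that reached 1 RPKM in 2 libraries or more entered limma 3.58.1 in R 4.3.3 on log2(RPKM + 1), with 4 group means, a mean-variance trend, 7 residual degrees of freedom and two-sided tests. Fold changes on this scale understate low genes. The script was tested on simulated data. IDs were ordered by number, leaving out 6 IDs of another length. Named genes are those with the 8 largest ratios, the 4 highest silicon means, 3 each side of the threshold, the 3 longest runs, called members, and the 3 largest and 3 smallest differences of control 1 over control 3. Genes and lists were chosen with earlier results of these data known. Deviations of same-numbered libraries of different groups correlated with either sign (-0.195 to 0.156), and no block was used in the main fit. Python 3.11.15 served for the rest, with numpy 2.4.6 and pandas 2.3.3 for tables and matplotlib 3.10.9 for plots.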

Additional observations from a re-analysis of the deposited data

How the results depend on the processing

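The set counted 123 genes, 216 at a threshold of 3, 24 at 8, 178 with 0.1 RPKM added, 111 after median-of-ratios scaling and 104 (103 shared) after quantile normalization. Leaving out single libraries gave 123 to 271 genes: 271 without control 1, 236 without silicon 1 and 268 without silicon 2. Members called for salt against control numbered 3, and 5 each with 0.1 RPKM added, median-of-ratios scaling, quantile normalization and a replicate block, 0 when the compared groups were fitted alone, 1 without the silicon group, and 0 to 14 with 1 library left out. That count was 14 without control 3, 0 without control 2, and 1 each without salt 3, salt plus silicon 1 or either silicon library. For salt plus silicon against control there were 2, with 1 under a replicate block and 0 to 7 when single libraries were left out: 7 without control 3, 0 without control 2 or the third library with both treatments, and 1 without either of its fellows. Deviations from group means correlated from -0.195 to 0.156 in the 15 same-numbered pairs of libraries, with 5 over 0.1. In the 30 other pairs they correlated from -0.162 to 0.246. With 2 silicon libraries, the deviations of silicon 1 and silicon 2 are mirror images, so pairs with them are not separate observations. Among the 5 are control 1 with silicon 1 (0.107) and salt 2 with silicon 2 (0.144). Whether replicate numbers mark a shared batch was not tested. Calls between salt plus silicon and salt were 0 in all 20 settings. Control 1 above 2 above 3 held in 87 genes, in 85 and 84 after the scalings, and in 12 of the 24 at a threshold of 8, where 10 of the 24 were listed at 0 outside silicon. Neighbouring pairs numbered 9, 16 within 3 places, 1 at a threshold of 8 and 19 at 3. Median-of-ratios scaling moved the median change of all tested genes from 0.11 to -0.01 for salt and from 0.14 to -0.02 for salt plus silicon against control, where the set's medians became -0.58 and -0.45. The causes were not tested. The same rule for other groups and the set without genes at 0 elsewhere (111) were added after seeing the data. Depth is unknown, which limits values near 0 most.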
